A study of Mus musculus with 6 samples.

Results

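The genes described here repair DNA that cisplatin and normal metabolism damage by crosslinks, strand breaks, mismatched bases and altered bases. They were taken by symbol from the deposited probe table, and all 47 were found, in 89 probe rows, out of 21400 gene symbols in 30146 rows. A probe row is the count of 1 pair of detector oligonucleotides, so a gene has 1 row for each of its probes: 18 of these genes had 1 probe, 16 had 2 and 13 had 3. The samples were pancreatic islets of wild type (WT) male C57Bl/6 mice, kept in culture for 48 h. The treated arm was exposed to 10 uM cisplatin, a platinum compound that crosslinks DNA bases and is used in chemotherapy, and the control arm to its vehicle, saline at 0.9%. Each of 3 mice gave islets to both arms, which makes 3 cisplatin and 3 vehicle libraries, numbered here by mouse. The assay was TempO-Seq, in which the detector pairs are ligated on the RNA in a lysate and sequenced.

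Cells remove these lesions by several routes. In the Fanconi anaemia pathway a core complex and the ubiquitin-conjugating enzyme Ube2t mark the Fancd2 and Fanci proteins at an interstrand crosslink, nucleases cut it out, translesion polymerases copy past the remnant and homologous recombination mends the resulting break. Breaks can also be sealed by end joining, in which the Ku proteins Xrcc6 (Ku70) and Xrcc5 (Ku80) hold the ends and Xrcc4 with DNA ligase Lig4 joins them. Base excision repair removes single damaged bases and mismatch repair corrects copying errors. Islet endocrine cells divide rarely, and many genes of recombination and crosslink repair are best known from dividing cells.

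The libraries held 1116916 to 1366829 counts with cisplatin and 1470227 to 2272276 with vehicle. Cisplatin library 3 stood apart, with 28.6% of its counts in mitochondrially encoded rows against 2.83% and 3.11% in the other cisplatin libraries and 0.188% to 1.74% with vehicle. Cdkn1a, a cell cycle inhibitor induced by p53, went from 43.7 ± 15.9 to 951 ± 52.9 CPM (SD, n = 3), which checks the treatment labels. CPM is the count relative to library size, here on the TMM scale, which is set on the bulk of the rows. Cell type markers were each read on the most abundant row of the gene, also where levels are summed. Of tested beta cell markers 4 of 8, of alpha cell markers 3 of 6 and of endothelial and stromal markers 3 of 7 were called lower. Of delta and PP cell markers 1 of 4 was lower. In the endothelial and stromal list 1 gene was called higher, and of 2 tested exocrine markers 0 were called. Over all tested rows 13.9% were called lower and 11.1% higher. The beta cell markers still summed to 59669 to 140059 CPM with cisplatin and 91914 to 161899 with vehicle, while the summed level of the macrophage markers was 11.0 to 47.2 CPM with cisplatin and 128 to 206 with vehicle. In that list 5 of 6 tested genes were called lower, or 3 without vehicle library 1 or 3, and Adgre1 had 0 cisplatin counts. In bulk islets, fewer cells of a type and less RNA per cell cannot be told apart, and the part of these marker shifts in the repair values was not tested.

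Most repair genes were too scarce to test, as were most genes of the whole table. Of the 89 rows 22 passed the expression filter, which asks for 7.05 CPM (before TMM scaling) in 3 libraries, and they covered 17 genes. That is 24.7% of the repair rows, against 31.1% of all rows. By gene, 17 of the 47 had a tested row, against 7193 of 21400 in the whole table, so the lower share holds for rows only. There were 10 rows with 0 counts in every library and 33 rows with fewer than 10 counts in all, while 11 rows had 10 or more counts in all 6 libraries. Per library, 19 to 21 repair rows reached 10 counts with cisplatin and 25 to 30 with vehicle, the deeper libraries. Raw counts of the arms are therefore not on a level: equal sums, as 9 and 9 on a Msh6 probe, are a ratio of 2.10 on the TMM scale. None of the mismatch repair or checkpoint kinase rows passed. Of the 22 tested rows 10 were above the filter's level in all 6 libraries, 8 in all vehicle but only 1 or 2 cisplatin libraries, 2 in all cisplatin but not all vehicle libraries, and 2 in part of each arm.

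In the fit of all 6 libraries, Ube2t and Lig4 RNA were called higher with cisplatin and Xrcc6 and Lig1 RNA lower. Only the call of the more abundant Ube2t probe held in each fit without a single library. Of the 22 tested rows 3 were called higher and 3 lower at an adjusted p under 0.05 (edgeR quasi-likelihood test, adjusted over all 9381 tested rows). Over all tested rows 25.0% were called, 11.1% higher and 13.9% lower, so the repair share of 27.3%, with 13.6% in each direction, was close to the background. The median log2 fold change, cisplatin minus vehicle, was -0.26 over the tested repair rows and -0.07 over all tested rows. The 3 cisplatin libraries lay wholly above the vehicle libraries in 4 rows and wholly below in 4, that is 18.2% each, against 19.1% and 24.3% of all tested rows. With the mouse as a block 2 rows were called higher and 2 lower, and without vehicle library 1 the numbers were 1 and 0.

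**Figure D1:**
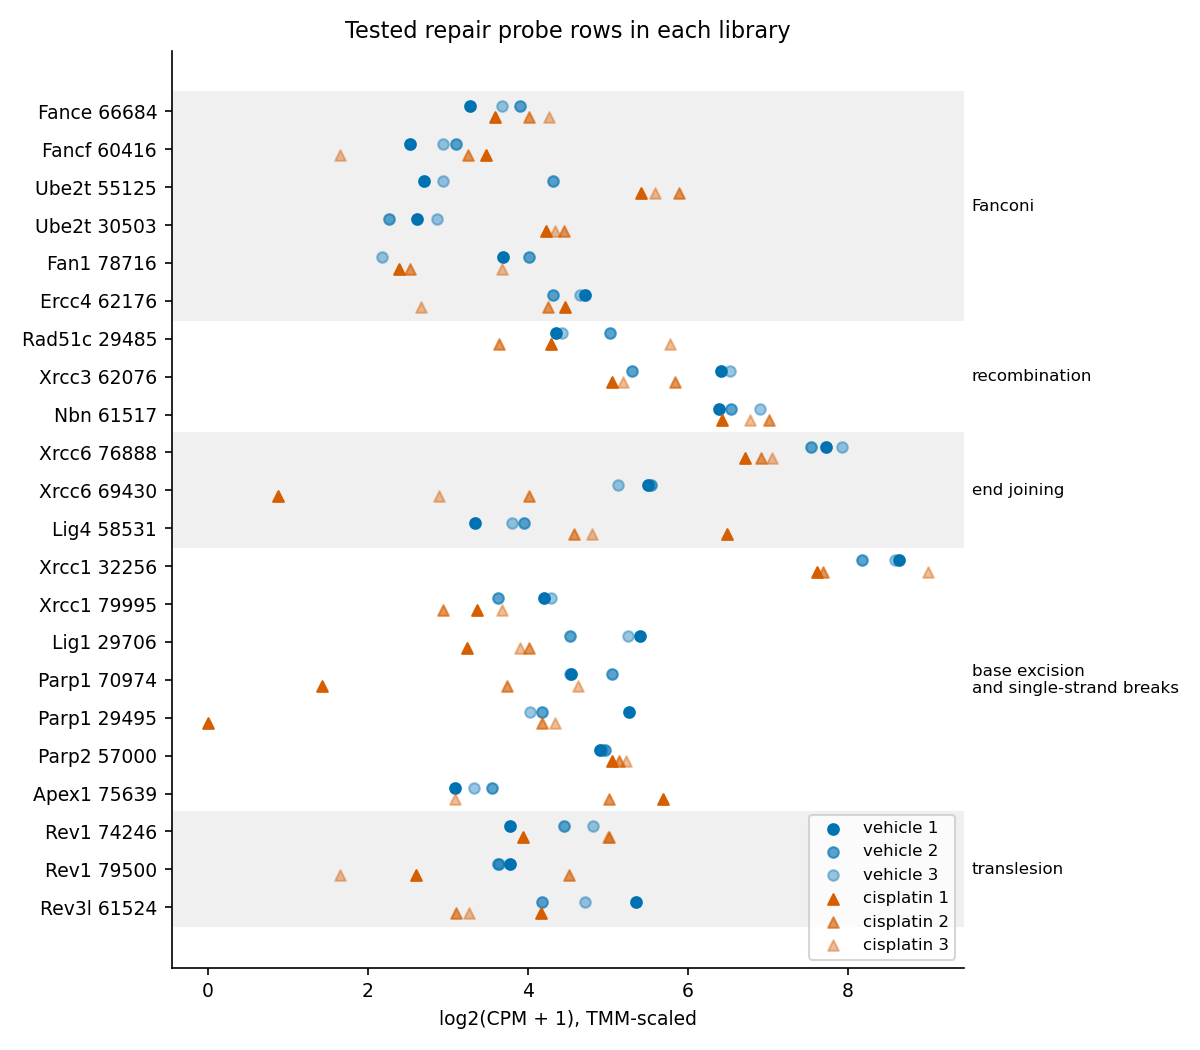
Level of each tested repair probe row in each library, as log2(CPM + 1) on the TMM scale, with circles for the 3 vehicle libraries and triangles for the 3 cisplatin libraries; shaded bands group rows by pathway. Cisplatin triangles lie to the right of every vehicle circle for both Ube2t rows and Lig4 and to the left for both Xrcc6 rows and Lig1.

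**Figure D2:**
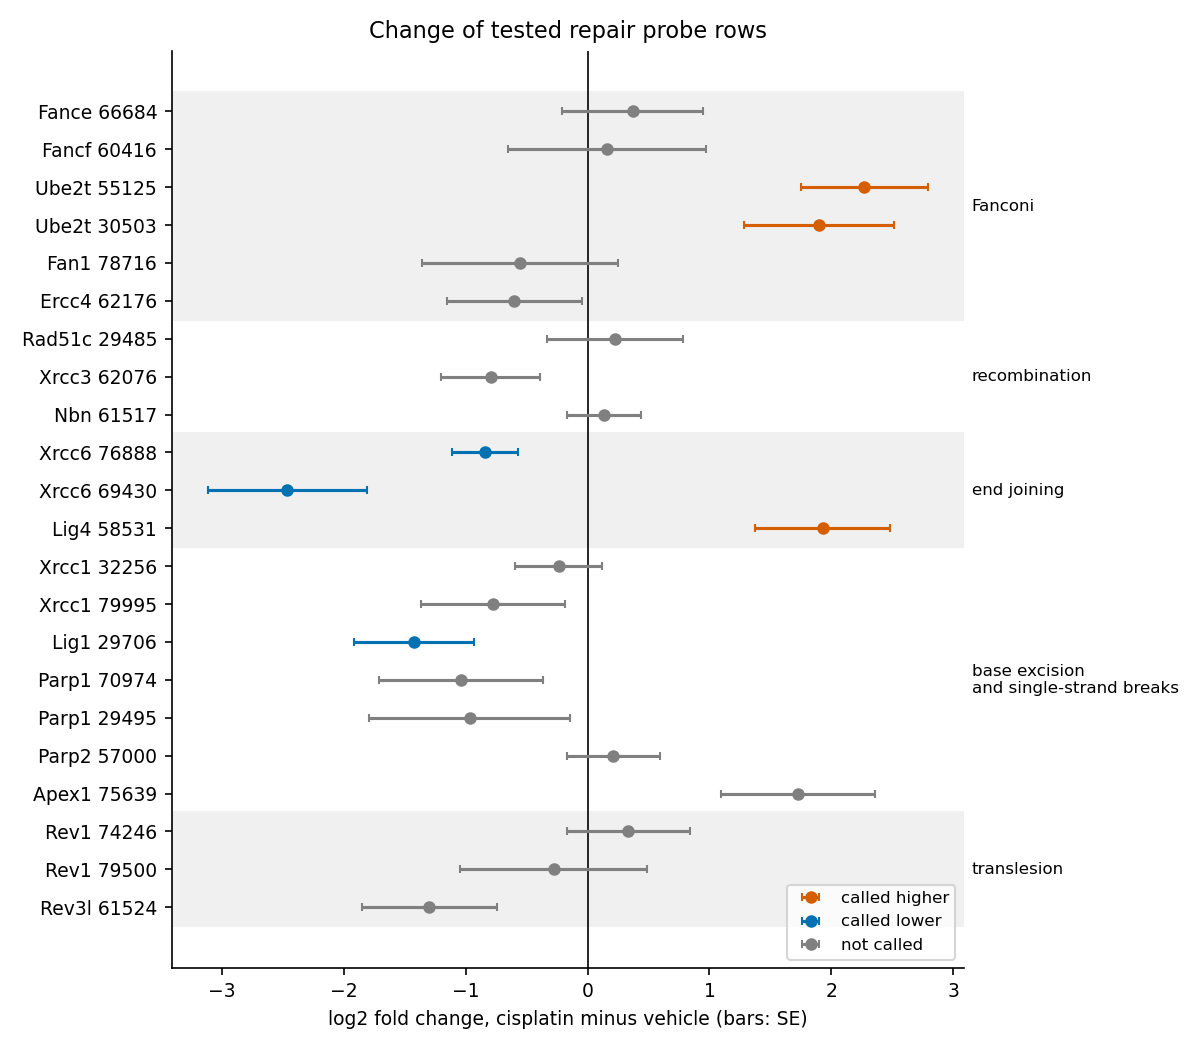
Log2 fold change, cisplatin minus vehicle, of the 22 tested repair probe rows with its standard error (bars), coloured by call. The called rows are the 2 of Ube2t and Lig4 (higher) and the 2 of Xrcc6 and Lig1 (lower).

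The promoter windows of Ube2t and Xrcc6, a gene called higher and a gene called lower on its most abundant probe, are shown for comparison. Each is the 250 bases before to 50 after the gene's start from RefSeq (GRCm38.p6), printed 5′ to 3′ on the gene's own strand, with capitals for GGGCGG, the letters of the box bound by Sp1.
Ube2t, chr1:134962315-134962614, plus strand: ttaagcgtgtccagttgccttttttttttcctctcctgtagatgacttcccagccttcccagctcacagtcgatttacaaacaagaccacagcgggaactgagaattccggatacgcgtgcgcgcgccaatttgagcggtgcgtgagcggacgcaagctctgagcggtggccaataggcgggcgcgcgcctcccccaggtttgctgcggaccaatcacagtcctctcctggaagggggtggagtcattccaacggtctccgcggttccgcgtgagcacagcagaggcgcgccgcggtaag
Xrcc6, chr15:82016119-82016418, plus strand: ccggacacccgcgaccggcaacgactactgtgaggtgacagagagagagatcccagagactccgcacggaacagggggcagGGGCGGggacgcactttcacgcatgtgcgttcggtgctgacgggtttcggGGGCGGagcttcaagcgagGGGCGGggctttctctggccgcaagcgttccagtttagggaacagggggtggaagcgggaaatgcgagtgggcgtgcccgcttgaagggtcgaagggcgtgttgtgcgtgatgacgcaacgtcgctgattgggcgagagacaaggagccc
The Xrcc6 window held 3 copies of GGGCGG, and the Ube2t window held none. The windows of the other called genes, Lig1 (lower) and Lig4 (higher), held none either, so the box did not follow the direction of the call. On either strand this box stood in 24 of the 41 repair genes with a window, or 58.5%, against 35.9% of all 27025 genes' windows. The E2F letters TTTGGCGC were in 1 of the 41 (2.44%, against 0.537% of all) and TTTCGCGC in 2 (4.88%, against 0.318%), and the cell cycle homology letters TTTGAA were in 0, against 18.1% of all. No match overlapped another in the printed windows. The Ube2t window was 59.7% G and C, the Xrcc6 window 64.3%, the Lig1 window 51.3% and the Lig4 window 66.3%. The median over all windows was 52.7%. These are matches of letters in 1 window per gene, the first listed where a gene had several. The windows of all genes were not matched to those of the repair genes in G and C content or in expression. Whether the shares differ apart from that was not tested.

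Among Fanconi pathway genes, Ube2t rose on its more abundant probe. This probe read 41.4, 58.0 and 47.2 CPM in cisplatin libraries 1 to 3 and 5.53, 18.9 and 6.69 in the vehicle libraries. Every cisplatin library was above every vehicle library, and within mice 1, 2 and 3 the level was 7.49, 3.06 and 7.05 times higher. The log2 fold change was 2.27 ± 0.52 (SE, adjusted p = 0.00640). The row was above the filter's level in 3 cisplatin but only 2 vehicle libraries. With no filter on low counts it was at 2.18 (adjusted p = 0.00118). It was the only repair row called in each of the 6 fits without a single library (adjusted p = 0.00263 to 0.0470), at 2.97 without vehicle library 2.

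The other Ube2t probe read 17.8, 20.9 and 19.3 CPM with cisplatin and 5.14, 3.79 and 6.30 with vehicle. These groups did not overlap either, and the log2 fold change was 1.90 ± 0.61 (adjusted p = 0.0357). It passed the filter through the cisplatin libraries alone, so it had to be higher there and its call adds no support to that of the first probe. The call was lost with no filter on low counts (1.78, adjusted p = 0.150), when the mouse entered as a block (adjusted p = 0.0823) and when library totals set the scale (adjusted p = 0.152). It survived the removal of cisplatin library 1 but of no other library (adjusted p = 0.0621 to 0.137 in those 5 fits). Both probes cover the same gene and are not replicates of each other.

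The other Fanconi genes with a tested row were not called. Fance, a subunit of the core complex that binds Fancd2, read 11.0, 15.2 and 18.2 CPM with cisplatin and 8.70, 13.9 and 11.8 with vehicle (log2 fold change 0.37 ± 0.58). Fancf, an adaptor of the core complex, was at 0.16 ± 0.81. The nucleases were at -0.56 ± 0.81 for Fan1 and -0.60 ± 0.55 for Ercc4, the catalytic subunit that cuts beside crosslinks. Ercc4 was low in 1 library: cisplatin library 3 read 5.36 CPM, while the other cisplatin libraries at 21.1 and 18.1 lay beside vehicle values of 18.9 to 25.3.

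The substrates of Ube2t were hardly detected. Fancd2 had 5 cisplatin and 9 vehicle counts over its 3 probes and Fanci 7 and 3. Fancb had 0 counts, and Slx4, a scaffold for nucleases, had 2 and 10. Fancm, the helicase that recruits the core complex, had 8 counts with cisplatin and 55 with vehicle over its probes. Of these, 1 probe had 1 cisplatin count and 9, 6 and 14 vehicle counts, for a ratio of 0.0725 (exact 95% interval 0.00177 to 0.437), and another had 7 and 26, for a ratio of 0.566 (0.207 to 1.34). The most abundant Fancc probe had 0, 0 and 3 counts with cisplatin and 12, 9 and 12 with vehicle, for a ratio of 0.191 (0.0375 to 0.609). Its other probe went the opposite way, with 6 cisplatin counts, all in library 2, and 0 vehicle counts. Fancg, a core complex subunit, had 4 and 26 counts, and Fancl, the ubiquitin ligase of the core complex, had 9 and 20 over its probes. These ratios are of summed counts on the TMM scale, the intervals cover counting error only, and none of these rows was tested. Fanca had a probe with 10 cisplatin counts and 0 vehicle counts, at least 7.0-fold higher when 3 counts are set as the vehicle group's floor, but all 10 lay in cisplatin library 3.

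None of the 3 tested recombination rows was called in the reported edgeR fit or by DESeq2. In that edgeR fit 0 had an unadjusted p under 0.05. Nbn, a part of the complex that senses broken ends, read 84.6, 128 and 108 CPM with cisplatin and 83.0, 91.5 and 118 with vehicle, with overlapping groups and a log2 fold change of 0.13 ± 0.30 (adjusted p = 0.797). Xrcc3, which acts in homologous recombination, read 32.1, 56.1 and 35.4 against 83.8, 38.5 and 91.3 (-0.80 ± 0.40, adjusted p = 0.170). Vehicle library 2 lay among the cisplatin values, and without it the row was at -1.10 and still not called (adjusted p = 0.0601). With library totals alone as the scale, edgeR called Xrcc3 lower (-1.30, adjusted p = 0.0365). Rad51c, which acts in the same route, read 18.6, 11.4 and 53.6 against 19.4, 31.6 and 20.5. Its log2 fold change was 0.22 ± 0.56 with all libraries and -0.64 without cisplatin library 3, the library rich in mitochondrial counts. Rad50, the partner of Nbn, had 3 cisplatin and 30 vehicle counts and was too scarce to test. Brca1 had 6 and 14 counts, Brca2 11 and 22 and Palb2 6 and 2, while Rad52, Rad54l and Xrcc2 had 2, 1 and 7 counts in all 6 libraries together.

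End joining genes with a tested row moved in opposite directions. The more abundant Xrcc6 probe read 104, 120 and 132 CPM with cisplatin and 211, 184 and 242 with vehicle. All cisplatin libraries were below all vehicle libraries, at 0.493, 0.650 and 0.544 of the vehicle level within mice. The log2 fold change was -0.84 ± 0.27 (adjusted p = 0.0344). It kept its sign in every fit, from -0.66 to -0.95 without single libraries, but the call depended on 4 of them. The adjusted p was 0.159 and 0.0718 on leaving out cisplatin libraries 1 and 2, and 0.165 and 0.166 on leaving out vehicle libraries 1 and 3.

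The less abundant Xrcc6 probe read 0.846, 15.2 and 6.43 CPM against 44.3, 45.5 and 33.8. The groups were again apart, with a log2 fold change of -2.46 ± 0.65 (adjusted p = 0.0142). It passed the filter through the 3 vehicle libraries, with 1 cisplatin library above the filter's level, so its call is no added support for the first probe. With no filter on low counts it was at -2.56 (adjusted p = 0.000435). Leaving out cisplatin library 1 gave -1.82 and leaving out cisplatin library 2 gave -3.56. The call was lost on leaving out cisplatin library 3 (adjusted p = 0.0511), vehicle library 1 (adjusted p = 0.0780) and vehicle library 2 (adjusted p = 0.0528). Summed over both probes, Xrcc6 was at -1.04 ± 0.25 (adjusted p = 0.00727), a sum that holds the counts of this row too. The Ku partner Xrcc5 had 0 cisplatin and 5 vehicle counts over both of its probes, too few to measure a change.

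Lig4, the ligase of end joining, rose. Its probe read 88.8, 22.8 and 26.8 CPM with cisplatin and 9.09, 14.5 and 13.0 with vehicle. The groups did not overlap, but cisplatin library 1 was far above the other cisplatin libraries, and within mice the level was 9.77, 1.57 and 2.06 times higher. The log2 fold change was 1.93 ± 0.55 (adjusted p = 0.0210). Without cisplatin library 1 it was 1.13 (adjusted p = 0.121), and leaving out vehicle libraries 1, 2 and 3 in turn gave adjusted p values of 0.102, 0.0529 and 0.0686. With library totals as the scale the adjusted p was 0.0560. Xrcc4, its cofactor, had 0, 0 and 4 counts with cisplatin and 8, 12 and 9 with vehicle, for a ratio of 0.290 (exact 95% interval 0.0740 to 0.825), too few to test.

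**Figure D3:**
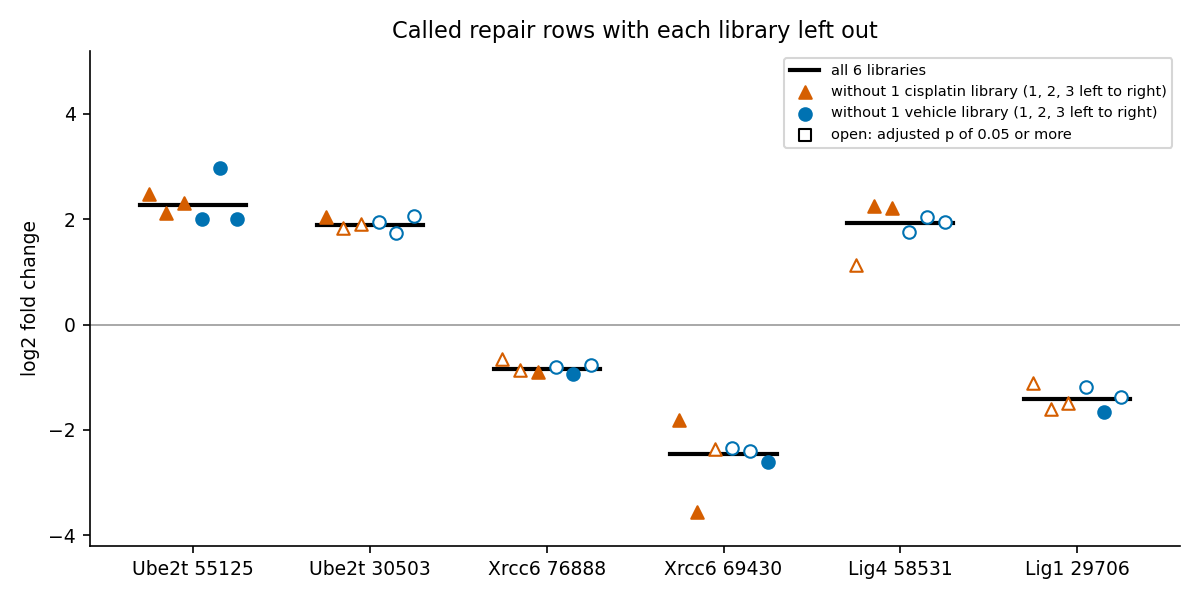
Log2 fold change of the 6 called repair rows with all libraries (black bar) and with each library left out in turn (triangles, a cisplatin library; circles, a vehicle library; open symbols, adjusted p of 0.05 or more). The more abundant Ube2t row keeps filled symbols throughout, and the Lig4 row drops to 1.13 without cisplatin library 1.

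In base excision and single-strand break repair, 1 of 7 tested rows was called. Lig1, the ligase that seals nicks in long-patch repair and replication, read 8.46, 15.2 and 13.9 CPM with cisplatin and 41.1, 22.1 and 37.0 with vehicle. It fell in all 3 mice, to 0.206, 0.688 and 0.377 of the vehicle level, with a log2 fold change of -1.42 ± 0.49 (adjusted p = 0.0477). The call was lost when the mouse entered as a block (adjusted p = 0.0897), under RLE factors (adjusted p = 0.0537), with no filter on low counts (adjusted p = 0.0687) and in 5 of the 6 fits without a library (adjusted p = 0.0633 to 0.257), the exception being vehicle library 2. A second Lig1 probe, not tested, had 4 cisplatin and 24 vehicle counts, for a ratio of 0.350 (exact 95% interval 0.0883 to 1.02).

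Apex1, the endonuclease that cuts at sites without a base, had 2 main probes that were both high in cisplatin library 2 but differed in cisplatin libraries 1 and 3. Its more abundant probe read 50.7, 31.4 and 7.51 CPM with cisplatin and 7.51, 10.7 and 9.05 with vehicle, with cisplatin library 3 at the bottom of the vehicle range. Its log2 fold change was 1.73 ± 0.63 (adjusted p = 0.0592). It was 2.19 and called without cisplatin library 3 (adjusted p = 0.0111), and DESeq2 called it (adjusted p = 0.0331). Its next probe, not tested, had 0, 22 and 18 counts with cisplatin and 7, 3 and 3 with vehicle. A further probe, not tested, had 0, 0 and 6 counts with cisplatin and 0, 3 and 1 with vehicle. With the counts of all its probes summed, Apex1 was called higher at 1.93 ± 0.44 (adjusted p = 0.00534).

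Parp1 and Parp2, which sense strand breaks and attach poly(ADP-ribose), were not called. The most abundant Parp1 probe read 1.69, 12.4 and 23.6 CPM with cisplatin and 22.1, 32.2 and 22.0 with vehicle (-1.04 ± 0.67, adjusted p = 0.289), and a second probe read 0, 17.1 and 19.3 against 37.6, 17.0 and 15.3. Both were lowest in cisplatin library 1, and without it they were at -0.39 and -0.27. A further probe, not tested, had 14 cisplatin and 83 vehicle counts. Parp2 varied little, at 32.1, 34.2 and 36.5 CPM against 28.9, 30.3 and 29.5. The cisplatin libraries were all above the vehicle libraries, by a log2 fold change of 0.21 ± 0.38 (adjusted p = 0.735), and its other probe, not tested, had 39 and 44 counts.

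Xrcc1, the scaffold of single-strand break repair, read 194, 204 and 509 CPM with cisplatin and 398, 288 and 382 with vehicle on its most abundant probe. Cisplatin library 3 was above and the other cisplatin libraries below all vehicle libraries, so that the log2 fold change was -0.24 ± 0.36 with all libraries and -0.82 without cisplatin library 3 (adjusted p = 0.0564). Its second tested probe did not share this peak: it read 9.30, 6.65 and 11.8 CPM against 17.4, 11.4 and 18.5 (-0.77 ± 0.59, adjusted p = 0.371). A further probe, not tested, had 7 and 8 counts. The glycosylase Ogg1, which removes oxidised guanine, had 19, 8 and 1 counts with cisplatin and 2, 1 and 7 with vehicle. Polb, the gap-filling polymerase, had 10, 9 and 1 against 1, 0 and 5 on its most abundant probe. In both, cisplatin libraries 1 and 2 held nearly all cisplatin counts. Ung, which removes uracil, had 8 and 4 counts in all, and Lig3, the ligase that works with Xrcc1, 7 and 18.

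Of translesion polymerases, Rev1 and Rev3l were tested and neither was called. Rev3l, the catalytic subunit of polymerase zeta, read 16.9, 7.61 and 8.58 CPM with cisplatin and 39.9, 17.0 and 25.2 with vehicle. The groups were apart by a narrow margin, with a log2 fold change of -1.30 ± 0.55 (unadjusted p = 0.0340, adjusted p = 0.102). The row was called lower without cisplatin library 1 (-1.67, adjusted p = 0.0462) and with library totals alone (adjusted p = 0.0461). It passed the filter through the 3 vehicle libraries, with 1 cisplatin library above the filter's level, so its gap between the groups is no independent support. With no filter on low counts it was at -1.42 (adjusted p = 0.142). Rev1, a polymerase and scaffold for the others, was at 0.33 ± 0.51 on its more abundant probe and -0.28 ± 0.77 on the other. Polh had 8 cisplatin and 5 vehicle counts, Polk 0 and 2, and Rad18, the ligase that marks stalled forks, 0 in every library.

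The mismatch repair and checkpoint genes could only be counted. Msh6, which recognises single mismatches, had 12, 0 and 5 counts with cisplatin and 2, 0 and 2 with vehicle on 1 probe. The other Msh6 probe had 9 and 9 in all, for a ratio of 2.10 on the TMM scale (exact 95% interval 0.739 to 5.97). Msh3, the counterpart of Msh6 for larger loops, had 5 and 39 counts over its probes. The more abundant Pms2 probe had 0, 1 and 4 against 24, 1 and 13, for a ratio of 0.276 (exact 95% interval 0.0849 to 0.704). Pms2 is the subunit with nuclease activity, and vehicle library 2 held as little of it as the cisplatin libraries.

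Chek1, the kinase that acts on signals from stalled forks, gave opposite readings on 2 probes. The first had 5, 3 and 2 counts with cisplatin and 17, 15 and 6 with vehicle, for a ratio of 0.553 (exact 95% interval 0.246 to 1.13). The second had 7, 15 and 2 against 0, 2 and 1, for a ratio of 16.8 (5.10 to 87.2). The probe counts together were 35 and 44 and gave a log2 fold change of 0.59 ± 0.77 (adjusted p = 0.619), so a sum hides the split. Chek2, the kinase downstream of breaks, had 8 counts with cisplatin, all in library 3, and 4 with vehicle.

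Among repair genes with several probes of enough counts, the probes of 1 gene mostly pointed the same way. Of 10 genes with 2 or more rows of at least 20 counts, a level chosen after the values were seen, 8 had all these rows on the same side of a ratio of 1. The exceptions were Chek1 and Rev1. Rows below that level were left out, and some of them lay on the other side, as for Fancc and Xrcc1. The same share over all genes of the table was not taken, so it is not known whether repair genes differ in this. Their sizes still differed, as for Xrcc6, where the fitted log2 fold changes were -0.84 and -2.46.

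**Figure D4:**
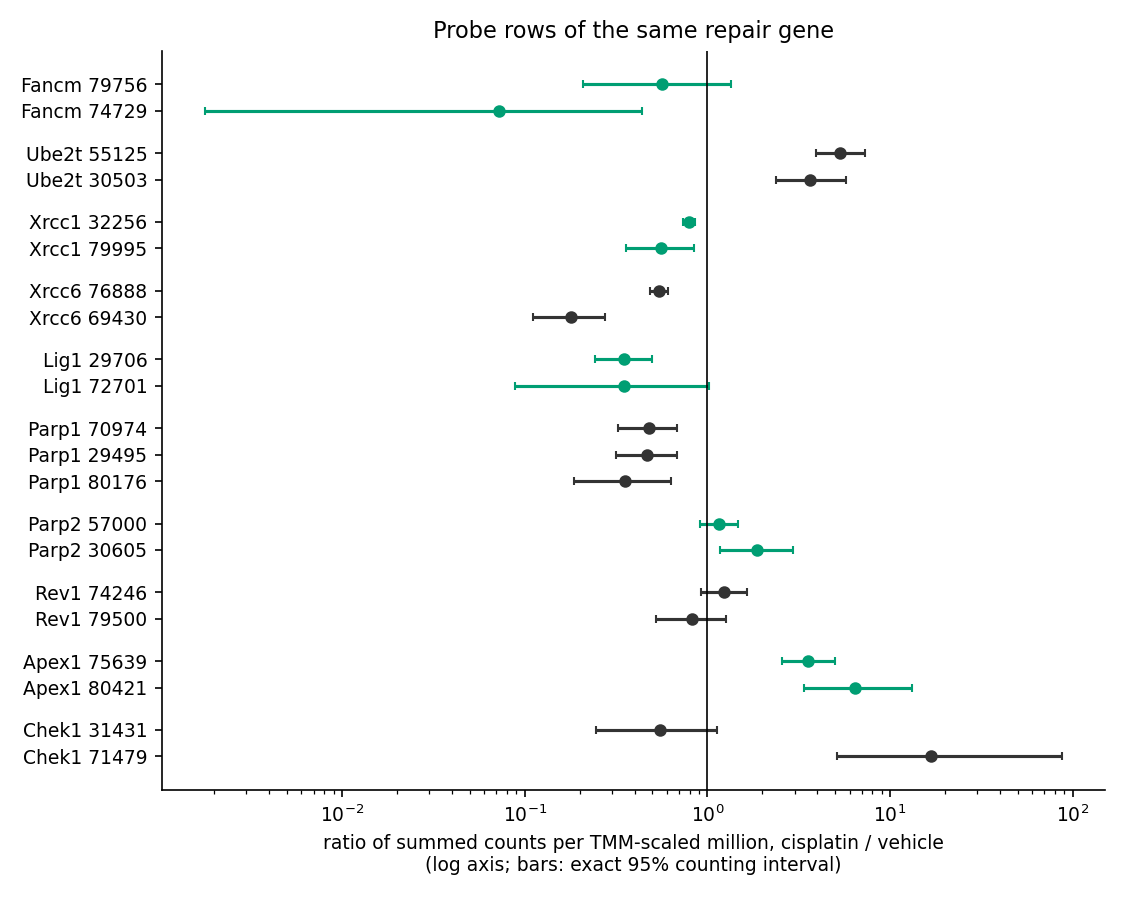
Ratio of summed counts, cisplatin over vehicle on the TMM scale (log axis), for each probe row with at least 20 counts in genes with more than 1 such row; bars are exact 95% counting intervals, which leave out the spread between libraries. The 2 Chek1 rows lie on opposite sides of 1, at 0.553 and 16.8, while the 3 Parp1 rows lie below it.

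Shorter repair genes read higher than longer ones, a description with no test. The 7 genes under 20 kb with a tested representative row, the most abundant of the gene, had a median log2 fold change of 0.37, the 7 of 20 to 50 kb one of -0.56 and the 3 of 50 kb or more one of -0.84. The short genes included Apex1 (2.17 kb), Lig4 (8.64 kb) and Ube2t (11.6 kb), and the longest was Rev3l (143 kb). Across these 17 genes Spearman's rho between span and log2 fold change was -0.56, and across all 9263 tested rows with a span it was -0.57, so the repair genes lay close to the whole table. The medians over all rows in the same classes were 0.49, -0.09 and -1.16. These are descriptions across genes measured in the same 6 libraries, which are not independent replicates. Xrcc3 (10.7 kb) was a short gene with a value below 0, at -0.80, and Rev1 (77.0 kb) a long gene with one above 0, at 0.33.

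**Figure D5:**
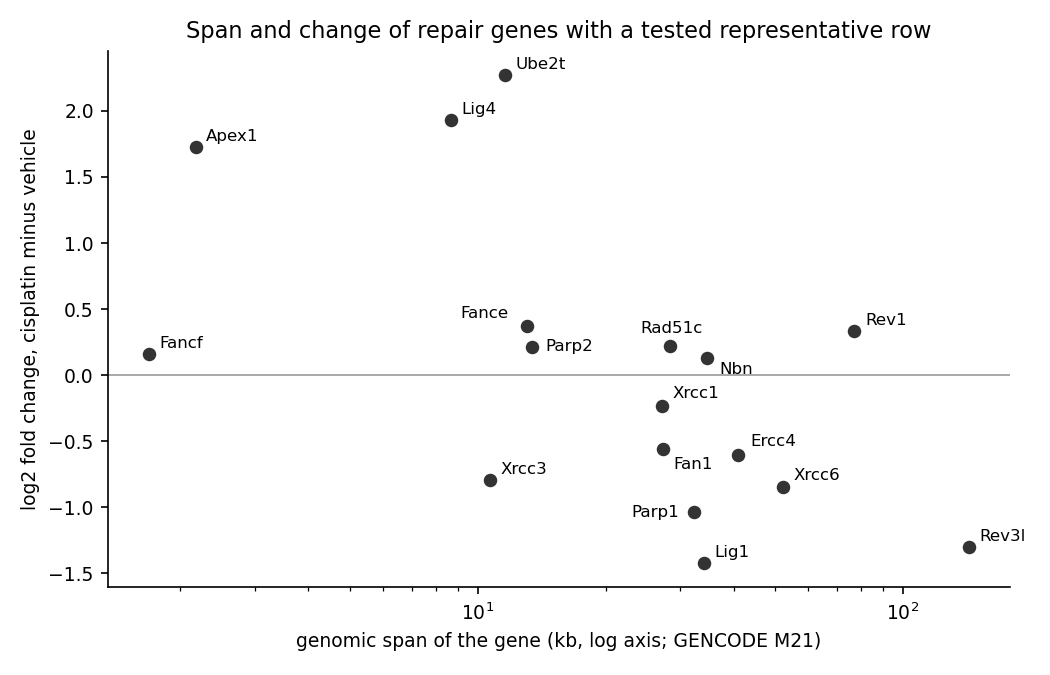
Genomic span in kb (log axis, GENCODE M21) against log2 fold change, cisplatin minus vehicle, for the 17 repair genes whose most abundant probe row was tested. Ube2t, Lig4 and Apex1, all under 20 kb, lie highest, and Lig1 (34.2 kb) and Rev3l (143 kb) lowest.

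Many related repair genes were not tested either. Of 62 further genes of break, crosslink, mismatch and base repair, 25 were tested on their most abundant row, against 7193 of all 21400 genes on any row. Of these 25 genes 2 were called higher and 3 lower, with a median of -0.34. Over all tested rows 11.1% were called higher and 13.9% lower. Scaling by library totals gave 0 higher and 6 lower, leaving out vehicle library 1 gave 0 and 2, and the mouse block gave 1 and 2. The largest change was in Trp53bp1, which binds chromatin at breaks and favours end joining, at 9.50 ± 4.62 CPM with cisplatin and 59.1 ± 18.7 with vehicle (SD, n = 3; log2 fold change -2.65 ± 0.50, adjusted p = 0.00185). Of 11 tested nucleotide excision repair genes 1 was called, with a median of 0.30 over the list. It rose and was Gtf2h5, a small subunit of the helicase complex TFIIH (1.64 ± 0.30, adjusted p = 0.00158). Of 8 tested genes of damage kinases and their partners 4 were called, each lower (median -1.08), where 13.9% of all tested rows were called lower. With the mouse as a block 2 were lower, leaving out vehicle library 1 gave 0, leaving out vehicle library 3 gave 1, and leaving out vehicle library 2, cisplatin library 2 or cisplatin library 3 gave 2. For comparison, 12 of 16 tested p53 targets were called higher, with a median of 2.15, where 11.1% of all tested rows were called higher.

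Lig1 also acts in DNA replication. Of 5 tested replication and proliferation genes 2 were called higher, with a median of 1.12, where 11.1% of all tested rows were called higher. Leaving out vehicle library 1, leaving out vehicle library 3 or scaling by library totals each brought the 2 calls to 0. Mki67, a marker of dividing cells, had 8 counts with cisplatin and 6 with vehicle on its most abundant row. Whether the share of dividing cells bears on Ube2t or Lig1 was not tested.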

How the data were processed

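TempO-Seq libraries of 3 cisplatin and 3 vehicle islet samples were analysed from the authors' deposited table of whole-number counts for each probe row. Per the submitters' processing notes, DESeq2 1.44.0, STAR 2.7.10b and fastp 0.23.2 were used, with no roles stated. How probes were aligned and counted, and on which build, is not given in the sources used here. Whether near-identical genes share probe reads cannot be told.

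Counts were fitted in R 4.3.3 with edgeR 4.0.16 (filter with a minimum count of 10, TMM factors, robust quasi-likelihood F-test, treatment only, two-sided). P-values were adjusted by Benjamini-Hochberg over all 9381 tested rows and called under 0.05. SE came from the fold change and F statistic. Alternatives were RLE factors, library totals, other filters, DESeq2 1.42.0, a mouse block, probes summed per gene and each library left out. The analysis was tested on simulated data. Genes, lists and tests were chosen with earlier results of these data known. Called rows and a fixed set of central genes are given by library, and the other genes by fold change or by counts of their main or summed probes; the scarcest extra probes enter only the totals of untested rows.

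Libraries were paired by the animal identifier in the labels, and their deviations from the group means correlated at -0.116, 0.0336 and 0.219 within mice. Between different mice the values ran from -0.227 to 0.168, so the ranges overlapped. P-values measure the spread between 3 libraries per arm. Amplified reads are not independent molecules, so intervals and floors hold counting error alone. Spans are from GENCODE M21. RefSeq promoter windows matched 41 of the 47 genes.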

Additional observations from a re-analysis of the deposited data

How the results depend on the processing

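Leaving out single libraries changed the repair calls most: 1 to 3 rows were called higher and 0 to 2 lower, against 3 and 3 with all libraries, and over all rows 504 to 1244 were called higher and 581 to 1294 lower. The numbers over all rows were 504 and 581 without vehicle library 1 and 579 and 742 without vehicle library 3, against 1040 and 1304. With library totals alone as the scale, which moved the median of all tested rows from -0.07 to -0.54, 459 rows were called higher and 2023 lower over all rows, and 1 and 5 among repair rows. The added lower calls were Xrcc3 and Rev3l. On that scale rows near 0 changed sign, none of them called: Fance (-0.13), Fancf (-0.21), Rad51c (-0.32), Nbn (-0.36), Parp2 (-0.26) and the more abundant Rev1 probe (-0.18). Without single libraries, sign changes were also of uncalled rows only: Fancf ran from -0.13 to 0.58, Rad51c from -0.64 to 0.59, Nbn from -0.025 to 0.37, the abundant Xrcc1 probe from -0.82 to 0.12 and the lesser Rev1 probe from -1.67 to 0.20. With no filter 79 repair rows were tested and 2 were called in each direction. With the mouse as a replicate block 2 were called in each direction, and other than the second Ube2t probe and Lig1 (adjusted p = 0.0823 and 0.0897) the block changed no call of a repair row. DESeq2 called 4 higher and 3 lower. Summing probes per gene gave 3 genes higher (Apex1, Lig4, Ube2t) and 2 lower (Lig1, Xrcc6). The causes of these shifts were not tested. Depth limits what can be seen: 67 of the 89 rows were not tested.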
